A study of Mus musculus with 32 samples.

Results

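This section describes 8 cDNA arrays of prefrontal cortex from female mice kept in air, 4 of line WSP against 4 of line WSR, out of 32 arrays in the whole series. They were chosen by their labels alone: sex female, treatment Air, selected line WSP or WSR. WSP (withdrawal seizure-prone) and WSR (withdrawal seizure-resistant) mice were bred from the heterogeneous stock HS/Ibg in opposite directions for the severity of ethanol withdrawal, in 2 independent selections per direction, which gives the selection replicates WSP-1, WSP-2, WSR-1 and WSR-2. The comparison addresses which transcripts differ between the selected lines before any ethanol. The mice were drug-naive adults of selected generation 26. They stayed in air chambers for 72 h and received no ethanol, but every mouse of both groups was given the alcohol dehydrogenase inhibitor pyrazole (68.1 mg/kg at the start and again at 24 h and 48 h), and brains were collected at the 0 h time point. Total RNA of 2 mice was pooled for each array, copied into 33P-labelled cDNA from oligo-dT primers and hybridised to 5163 spotted cDNA probes. An array's name joins its selection replicate to its pool, so that WSR 2-1 is pool 1 of WSR-2. Each line is represented by 2 bred populations, so a difference between lines includes whatever was fixed by chance during breeding.

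Ethanol withdrawal produces a state of raised excitability in the brain, and in mice it shows as convulsions when the animal is handled. Ethanol enhances inhibition through GABA-A receptors and dampens NMDA-type glutamate receptors, and nervous tissue adapts to both during long exposure, so that removal of the drug leaves excitation unopposed. Lines bred for withdrawal severity have been used to look for transcripts that mark the inherited part of this vulnerability. The prefrontal cortex is studied in this context because it is linked to the control of drug intake.

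The arrays of the 2 lines were not alike in their background reading, the single value recorded for a whole array. It was 283, 10.9, 99.4 and 10.3 scanner units on WSP 1-1, 1-2, 2-1 and 2-2, and 450, 721, 430 and 473 on WSR 1-1, 1-2, 2-1 and 2-2. Every WSR array lay above every WSP array (log2 difference −3.59, exact two-sided permutation test over 4 against 4 arrays, p = 0.0286, the smallest p this design allows), so line and background cannot be told apart here. The share of probes above 2 times the background ran from 7.81% to 24.8% in WSP and from 5.93% to 11.5% in WSR (exact two-sided permutation test, p = 0.229). Both low-background WSP arrays (1-2 and 2-2) correlated at 0.95 with each other over the tested probes, and the other pairs of arrays at 0.53 to 0.79. WSR 2-1 stood apart from the rest, with a median correlation of 0.63.

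**Figure D1:**
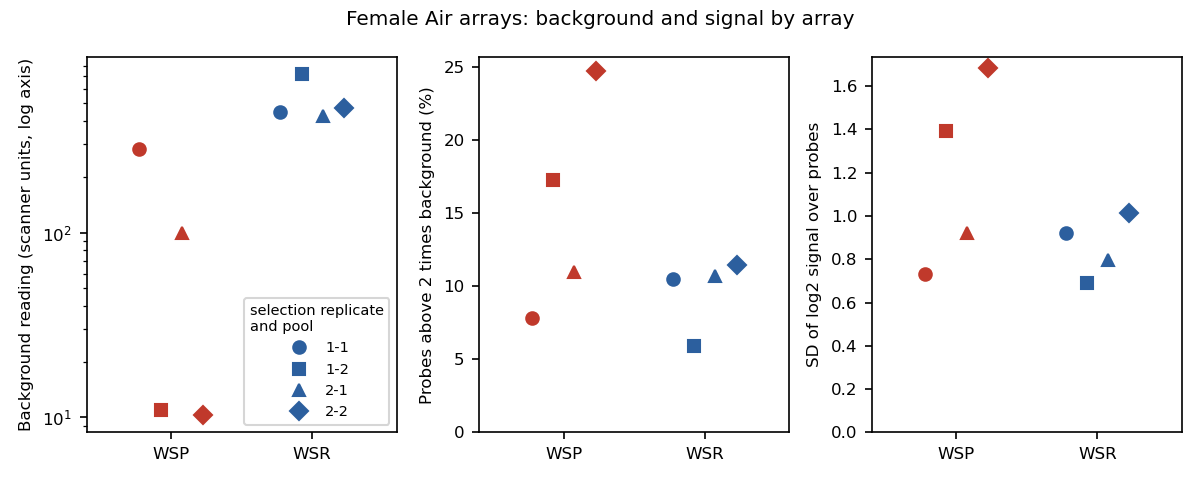
Background reading (left, log axis), share of probes above 2 times background (middle) and SD of log2 signal over probes (right) on each of the 8 female Air arrays; symbols mark selection replicate and pool. The WSP arrays 1-2 and 2-2 have readings of 10.9 and 10.3, while all 4 WSR arrays lie between 430 and 721.

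Probes whose signal exceeded 2 times the background on at least 5 of the 8 arrays are called bright here. There were 398 of them, and 61 carry a title that names 1 mouse gene. No bright probe was above that limit on more WSR than WSP arrays, while 107 were above it on more WSP arrays, so the rule favoured probes that read high in WSP. Counts and medians over the bright probes are therefore a description, and the 284 probes above the limit on all 8 arrays are given beside them. The tissue label was checked on cell type markers. Of 2 neuronal markers, Thy1 was above background on 2 WSP arrays and on 0 WSR arrays, and Syn1 did not pass the filter on dim probes. The astrocyte enzyme Glul was above background on all 8 arrays, and the other astrocyte marker, Aldoc, on 2 WSP and 1 WSR arrays. The microglia and macrophage marker Cd14 was above it on 3 WSP and 0 WSR arrays. Of 3 choroid plexus markers Ttr and Enpp2 were bright, and Folr1 did not pass the filter. Of 3 red cell probes 1 of Hba-a1 was bright and the other did not pass the filter, while Hbb-b1 was above background on 2 WSP and 0 WSR arrays. Both genes of the neuronal marker list were thus too dim to check the label. Outside that list, Chgb of neuroendocrine secretory granules was above 2 times background on all 8 arrays, and the GABA-B receptor gene Gabbr1 and the synaptotagmin gene Syt4 were above background on all 8. Other neuronal genes were above background on fewer arrays, Slc32a1 on 2 WSP and 2 WSR, Sst on 4 and 2, Grin1 on 2 and 1, and Vamp2 on 3 and 3. The markers thus do not settle the tissue label.

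No probe passed the threshold between the lines. In limma's moderated test on the 8 arrays, 0 of 3872 tested probes reached an adjusted p of 0.05 (0% called, lowest adjusted p = 0.379). At an unadjusted p under 0.05 stood 337 probes, 8.7% of those tested, 238 higher and 99 lower in WSP. Among the bright probes 0 were called, and 23 had an unadjusted p under 0.05, 22 of them higher in WSP. The groups did not overlap for 21 bright probes with WSP higher (5.28%, against 3.38% of all tested probes) and for 9 with WSP lower (2.26%, against 1.5% of all tested probes). Of the probes above the limit on all 8 arrays the groups did not overlap for 8 in each direction (2.82%). The median difference, as log2 WSP minus WSR, was 0.02 over all tested probes, 0.15 over the bright probes and 0.06 over those above the limit on all 8 arrays. With 31 arrays of the series in 1 fit, 129 probes passed, 93 higher and 36 lower. That fit shares 1 spread over all groups. Over the tested probes the median SE was 0.30 in male Air and 0.49 in female Air, so its p-values can be too small for the female arrays. The authors' deposited value table gave 11, 3 higher and 8 lower.

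**Figure D2:**
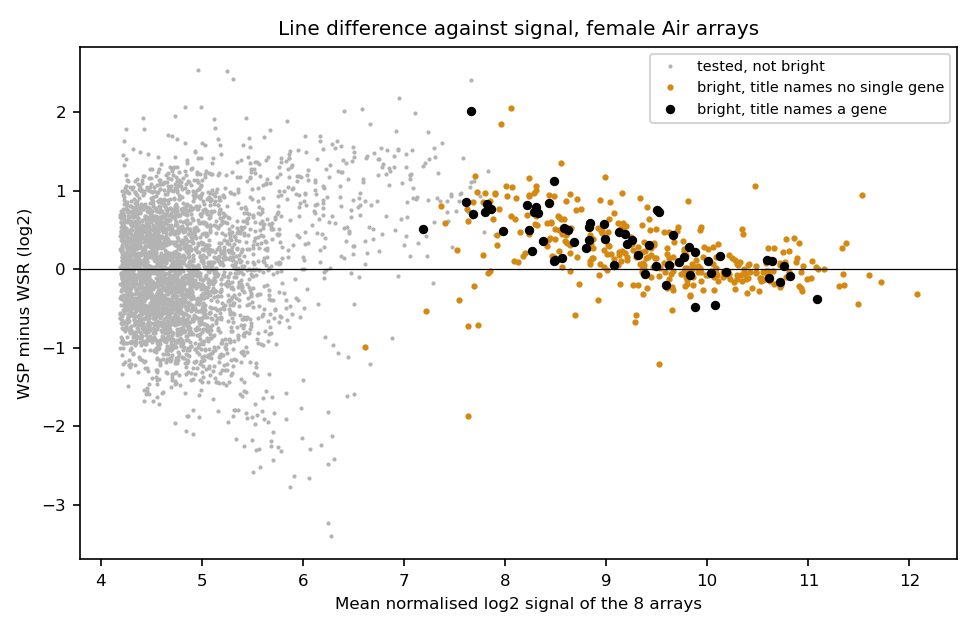
Difference between the lines (log2 WSP minus WSR) against the mean normalised log2 signal of the 8 arrays for the 3872 tested probes. Bright probes with a gene title (black) have a median of 0.32, and the 114 bright probes over a level of 10 have a median of −0.04.

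Among the 61 bright genes, 50 measured higher and 11 lower in WSP, with a median of 0.32 and a range from −0.49 to 2.01. The 22 of them above the limit on 5 to 7 arrays all read higher in WSP (median 0.71), the side the bright rule favoured. The 39 above it on all 8 arrays split into 28 higher and 11 lower. The array WSR 2-1 stood apart in the 61 genes. It held the lowest value of the 8 arrays for 41 of the 61 genes (67.2%), against 20.2% of all tested probes. Its median level over these genes was 8.33, while the other 7 arrays ran from 9.06 to 9.37. Without it the median of the 61 genes fell to 0.08, with 39 of the 61 higher and 22 lower, and 10 rather than 19 exceeded 0.5. Median scaling in place of quantile normalisation moved the median of all tested probes to 0.17 and that of the bright genes to 1.64, so the direction of a bright gene depends on the scaling. For the 39 genes above 2 times background on all 8 arrays the median was 0.12 with all arrays and 0.01 without WSR 2-1. Among the bright probes the difference also went with the level, but the rule that picked them favoured probes that read high in WSP. The 140 bright probes with a mean log2 signal under 9 had a median of 0.51. The 144 between 9 and 10 had a median of 0.14, and the 114 over 10 a median of −0.04. The tested probes that were not bright had a median of −0.01, and a trend with level was not examined among them.

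The bright gene with the smallest p was Dnajb1, an Hsp40 co-chaperone that stimulates the folding cycle of Hsp70. Its normalised log2 signal was 8.83, 8.76, 9.34 and 9.27 on WSP 1-1, 1-2, 2-1 and 2-2, and 8.29, 8.60, 7.09 and 7.69 on the WSR arrays in the same order. All WSP arrays lay above all WSR arrays. The signal was above 2 times background on 4 WSP and 2 WSR arrays. The difference was 1.13 ± 0.40 (SE, log2, n = 4 against 4, 95% interval 0.23 to 2.03), with a limma adjusted p of 0.501. It was larger in selection replicate 2 (1.91) than in selection replicate 1 (0.34). Over the high-background WSP arrays alone it was 1.16, and without WSR 2-1 it was 0.85.

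Hunk, a serine/threonine kinase of the AMPK-related family, showed the largest difference among the bright genes. Its log2 signal was 8.50, 8.52, 8.67 and 9.0 in WSP and 6.37, 8.95, 4.93 and 6.40 in WSR. The WSP arrays lay close together, while the WSR arrays spread widely and WSR 1-2 fell inside the WSP range. The difference was 2.01 ± 0.73 (95% interval 0.36 to 3.66, limma adjusted p = 0.501) and 1.43 without WSR 2-1. On WSR 2-1 its signal was 0.90 times the background, the only reading below background among the named bright genes. The bright rule admitted Hunk through 4 WSP arrays and 1 WSR array. Smad3 entered in the same way, and Rhoc, Fech, Srpk3 and Atp1b1 through 4 WSP and 2 WSR arrays.

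Tulp3, which carries receptors to the primary cilium, had log2 signals of 8.28, 8.35, 8.14 and 8.19 in WSP and of 7.37, 7.72, 7.19 and 7.60 in WSR. Its groups were tight and apart. The difference of 0.77 ± 0.29 (95% interval 0.11 to 1.42, limma adjusted p = 0.538) was nearly the same in selection replicate 1 (0.77) and selection replicate 2 (0.76), and was 0.67 without WSR 2-1. Hrc, a calcium-binding protein of the sarcoplasmic reticulum in muscle, read 9.82, 9.85, 9.97 and 9.90 in WSP and 8.79, 9.14, 9.09 and 9.60 in WSR. It was above 2 times background on all 8 arrays, and its groups did not overlap either. The difference was 0.73 ± 0.30 (95% interval 0.05 to 1.42, limma adjusted p = 0.538), and 0.71 without WSR 2-1.

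Dnajb1, Tulp3 and Hrc were the 3 bright genes, of 61, with all WSP arrays above all WSR arrays, a share of 4.92% against the 3.38% of all tested probes. Of the 39 genes above 2 times background on all 8 arrays, Hrc was the only 1 (2.56%). The next genes by p had overlapping groups, with WSR 1-2 inside the WSP range for Naa80 and Rhoc and above all WSP arrays for Selplg. Selplg, the leukocyte ligand of the selectins, differed by 0.80 ± 0.38, and Npdc1, a neural protein tied to exit from the cell cycle, by 0.75 ± 0.39. Naa80, the enzyme that acetylates the amino terminus of actin, differed by 0.73 ± 0.39, and Rhoc, a small GTPase that acts on actin, by 0.70 ± 0.41. Add3 (gamma adducin), which caps actin filaments in the membrane skeleton, measured 0.85 ± 0.49 and was the only one of these genes to read higher without WSR 2-1 (1.16). With cyclic loess in place of quantile normalisation Rhoc and Add3 measured 0.00 and −0.02.

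Fech, the last enzyme of heme synthesis, read 8.83, 8.89, 7.74 and 9.03 in WSP and 8.11, 8.55, 6.40 and 8.17 in WSR. In each line the 2-1 array was the lowest. The difference was 0.82 ± 0.53, and 0.35 without WSR 2-1. Smad3, which carries TGF-beta signals to the nucleus, measured 0.82 ± 0.55, and Srpk3, a kinase of splicing factors known from muscle, 0.84 ± 0.57. For Srpk3 the WSR values were 8.10, 8.78, 6.23 and 8.97, against a WSP mean of 8.86, and WSR 2-1 lay far below the others. Without WSR 2-1 its difference was 0.24. Fjx1, the mouse relative of a Drosophila Golgi kinase of tissue polarity, measured 0.49 ± 0.35, and Gipc1, a PDZ adaptor in endocytosis, 0.49 ± 0.36 (−0.03 with cyclic loess).

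**Figure D3:**
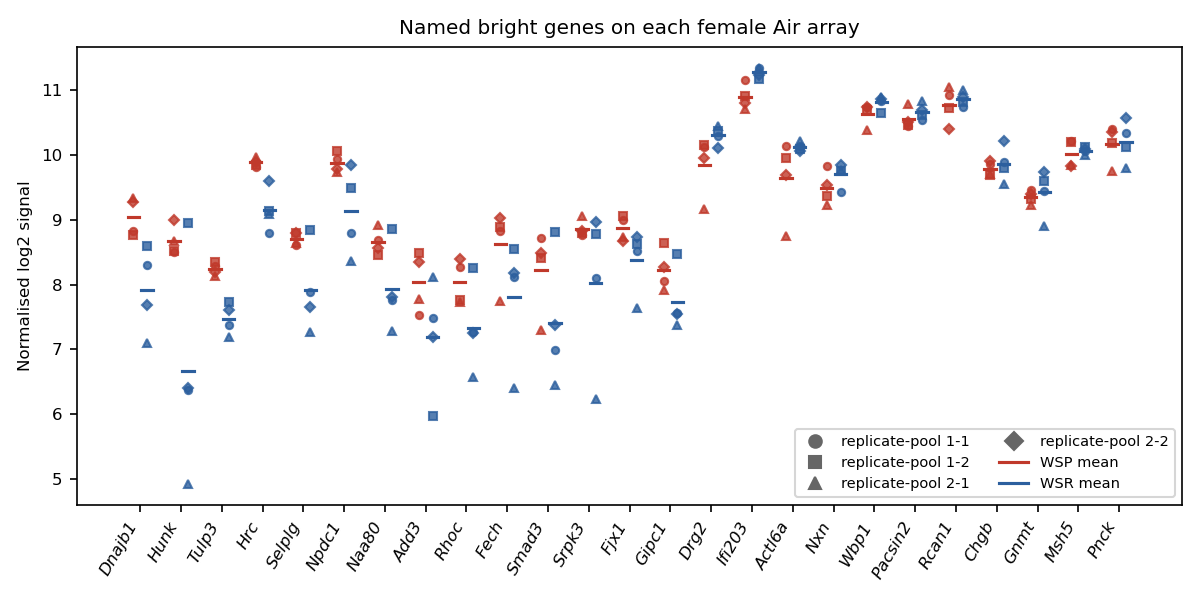
Normalised log2 signal of the named bright genes on each female Air array (red WSP, blue WSR; symbols for selection replicate and pool, bars for group means). WSR 2-1 (blue triangles) is the lowest array for most genes on the left, and Dnajb1, Tulp3, Hrc and Ifi203 are the genes whose groups do not overlap.

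Differences in the other direction were smaller. Ifi203, an interferon-inducible nuclear protein of the HIN-200 family, read 11.16, 10.91, 10.71 and 10.79 in WSP and 11.34, 11.18, 11.34 and 11.24 in WSR. It had the highest mean level of the bright genes, and all WSR values lay above all WSP values. The difference was −0.38 ± 0.28 (95% interval −1.02 to 0.26, limma adjusted p = 0.680). It was the 1 bright gene of 61 with all WSP arrays below all WSR arrays (1.64%, against 1.5% of all tested probes). Median scaling turned it to 0.61.

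Drg2, a GTPase of the developmentally regulated GTP-binding family, measured −0.45 ± 0.33. Actl6a (BAF53a), an actin-related subunit of the BAF chromatin remodelling complex, measured −0.49 ± 0.37. In both genes WSP 2-1 was the lowest array, at 9.17 for Drg2 and 8.75 for Actl6a, while the WSR arrays of Actl6a kept within 10.06 to 10.22. With median scaling these differences were 0.95 and 1.01. The remaining 8 genes that read lower in WSP differed by 0.21 or less. They were Nxn, a thioredoxin-related redox protein (−0.21 ± 0.30), Wbp1, a WW-domain ligand (−0.17 ± 0.28), and Pacsin2, which bends membranes in endocytosis (−0.12 ± 0.28). Rcan1, a regulator of the phosphatase calcineurin (−0.08 ± 0.30), and Chgb, chromogranin B of dense-core granules (−0.07 ± 0.30), differed by less than 0.1, as did Gnmt, which methylates glycine (−0.07 ± 0.31). The meiotic recombination gene Msh5 (−0.05 ± 0.29) and Pnck, a calmodulin-dependent kinase (−0.03 ± 0.32), had the smallest differences.

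How small a difference these arrays could bound depends on the probe. For 23 of the 61 bright genes the 95% interval lay within 1 log2 unit on either side of 0. Under quantile normalisation a doubling or halving between the lines thus falls outside the interval for them. The intervals leave out the choice of scaling, and median scaling alone moved the median of the bright genes to 1.64. The interval was wider for 38. Chgb, as an example, had an interval from −0.74 to 0.59, and Pacsin2 from −0.76 to 0.52. Over all tested probes the interval lay within those limits for 411 of 3872. The spread between arrays was larger in WSR than in WSP for the bright genes, with median SDs of 0.46 and 0.19.

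The bright members of the functional lists were mostly genes of abundant products. Ttr, the thyroxine carrier made by the choroid plexus, differed by 0.57 ± 0.53 and by 0.04 without WSR 2-1, where it read 7.09 against 8.89 to 9.45 on the other WSR arrays. Enpp2 (autotaxin), another choroid plexus gene, differed by 0.35 ± 0.34 and read −0.01 with cyclic loess. The alpha-globin gene Hba-a1 differed by 0.28 ± 0.34, and Atp1b1, the beta subunit of the sodium pump, by 0.50 ± 0.49. Another Atp1b1 probe, not bright, measured −0.23 ± 0.39. Of the ubiquitin and proteasome genes, Rbx1, the RING subunit of cullin ligases, measured 0.37 ± 0.30 and Psmd7, of the proteasome lid, 0.37 ± 0.39. The invariant chain Cd74 (0.05 ± 0.30), ferritin light chain Ftl1 (0.04 ± 0.30) and the bright translation initiation factor probe Eif2b (0.04 ± 0.35) differed by less than 0.1. Another Eif2b probe, not bright, measured 0.73 ± 0.44. Cks1b, which binds cyclin-dependent kinases, measured 0.52 ± 0.47. None of these values passed the test. Fewer cells of a type and less RNA per cell cannot be told apart in these bulk samples.

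**Figure D4:**
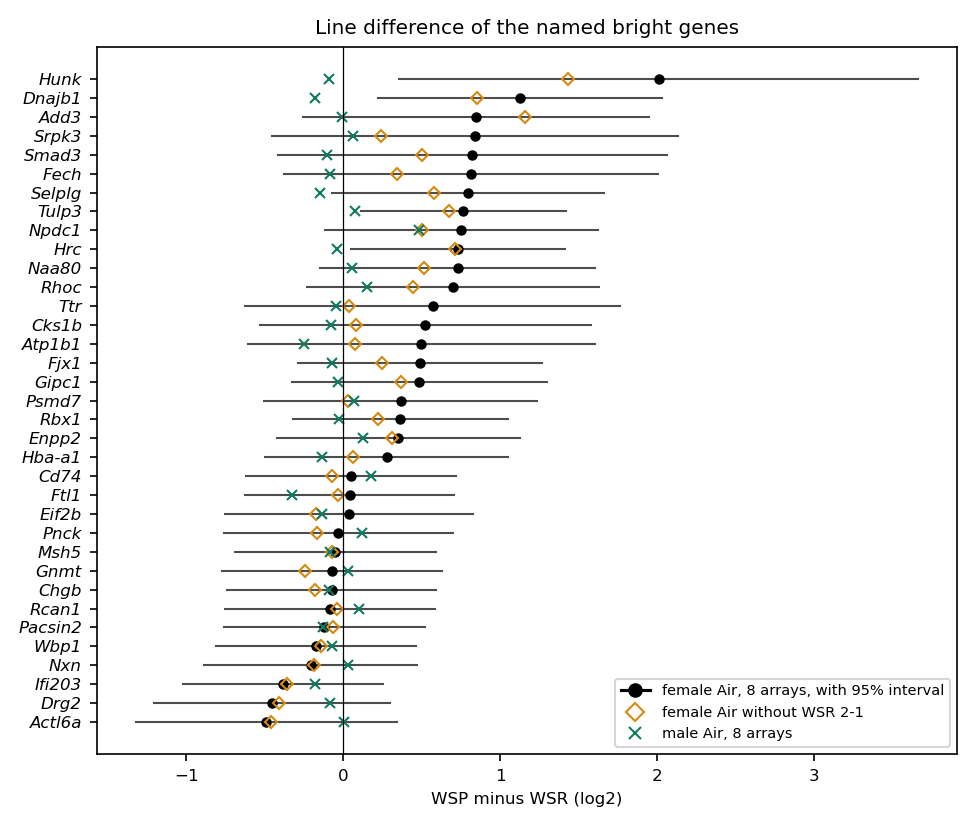
Log2 WSP minus WSR of the named bright genes in female Air (black, with 95% interval), the same without array WSR 2-1 (open diamonds) and in male Air (crosses). The female values run from −0.49 (Actl6a) to 2.01 (Hunk), and the male value of Npdc1 (0.48) is the highest of the male values.

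Probes that were not bright held the smallest p-values of the comparison, and here the background matters most. Mtch1, a protein of the outer mitochondrial membrane, was above background on 1 WSP and 1 WSR array, so its difference of −1.18 ± 0.33 lies among readings at or below background, and in male Air it measured 1.24 ± 0.50. The adhesion protein gene Nectin3 was above background on 2 WSP and 3 WSR arrays, at 1.48 times it at most. It measured −1.38 ± 0.45, and 0.38 ± 0.28 in male Air. Prdx4, a peroxiredoxin of the endoplasmic reticulum, was above background on 0 WSP and 2 WSR arrays, at 1.17 times it at most. It measured −1.68 ± 0.52 (log2 means 3.59 and 5.27, limma adjusted p = 0.414), mostly among readings below background. Its groups overlapped, with WSP 1-1 at 4.96 above WSR 1-1 at 4.92 and WSR 2-1 at 4.80.

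In the other direction stood Sgk3, a kinase downstream of phosphoinositide 3-kinase, with 6.93, 8.02, 7.47 and 8.81 in WSP and 6.35, 6.39, 5.49 and 5.95 in WSR. The difference was 1.76 ± 0.45 (limma adjusted p = 0.390), and it was 1.16 over the high-background WSP arrays. The low-background WSP arrays read 1.22 higher than the high-background WSP arrays, within one line. Atr, the DNA damage kinase, measured 1.89 ± 0.50 and 1.34 over the high-background WSP arrays. Dlg4 (PSD-95), the scaffold of excitatory synapses, was above background on 4 WSP and 0 WSR arrays and read at least 1.31-fold higher in WSP (log2 means 5.64 and 4.04). Eprs, which charges tRNAs with glutamate and proline, had the same pattern of detection and read at least 1.34-fold higher (log2 means 5.68 and 4.26). Such a bound sets the WSP mean against a floor on each WSR array. That floor is the lowest signal above background or the probe's own value, whichever is higher. The bound concerns the means and leaves out the spread between arrays. Over all probes the mean share above background was 57.3% on the WSP arrays and 26.6% on the WSR arrays. The detection pattern of Dlg4 and Eprs thus leans the way of dim probes in general. The adjusted p was 0.390 for each of Sgk3, Atr, Dlg4 and Eprs. In the 31-array limma fit the adjusted p was 0.0033 for Dlg4, 0.00707 for Atr, 0.0182 for Eprs, 0.0304 for Prdx4 and 0.0383 for Hunk. That fit shares 1 spread with the less variable male arrays, so these values can be too small for the female arrays.

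Most members of the functional gene lists lay near background on these arrays, and 0 passed the test in any list. Beside each list median stands the median of all tested probes, 0.02. The heat shock and chaperone list had 8 tested members, 3 higher and 5 lower in WSP, with a median of −0.12, and Dnajb1 was its 1 bright member. Of the proteasome and ubiquitin list 6 of 11 were higher (median 0.12). Protein kinases and phosphatases, the longest list with 55 tested probes, split into 28 higher and 27 lower (median 0.01).

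Some lists leaned one way. All 7 ribosomal protein genes read lower in WSP (median −0.41, range −1.04 to −0.09), as did all 5 of glycolysis and the citrate cycle (median −0.65, range −1.29 to −0.16). Of 7 genes of MHC and the interferon response 6 read lower (median −0.57), with Cd74 the exception. Chromatin modifiers had 6 of 9 lower (median −0.46), immediate early genes 6 of 9 (median −0.25), and cytochrome P450 genes 4 of 6 (median −0.35). At most 4 members of each of these 6 lists were above background on 5 or more arrays, and the median of the probes that were not bright but carry a gene title was itself −0.13. Cytoskeleton and motor genes had 5 of 6 higher (median 0.22).

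Lists close to synaptic function were small. Of 3 genes of GABA and interneurons 2 were lower (median −0.09), and of 3 glutamate receptor and scaffold genes 2 were lower (median −0.03), with Dlg4 the higher one. Ion channels and pumps had 4 of 6 lower (median −0.29), and vesicle traffic genes 3 of 6 (median −0.07). The lists of translation factors (4 of 8 lower, median −0.03), the respiratory chain (3 of 6 lower, median 0.07) and oxidative stress (2 of 3 lower, median −0.14) were split. None of the genes set aside as candidates for seizure and ethanol withdrawal was named by a probe title. The array also holds 2640 probes titled as tags, 849 named only by similarity and 514 without a title, which were not assigned to genes.

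**Figure D5:**
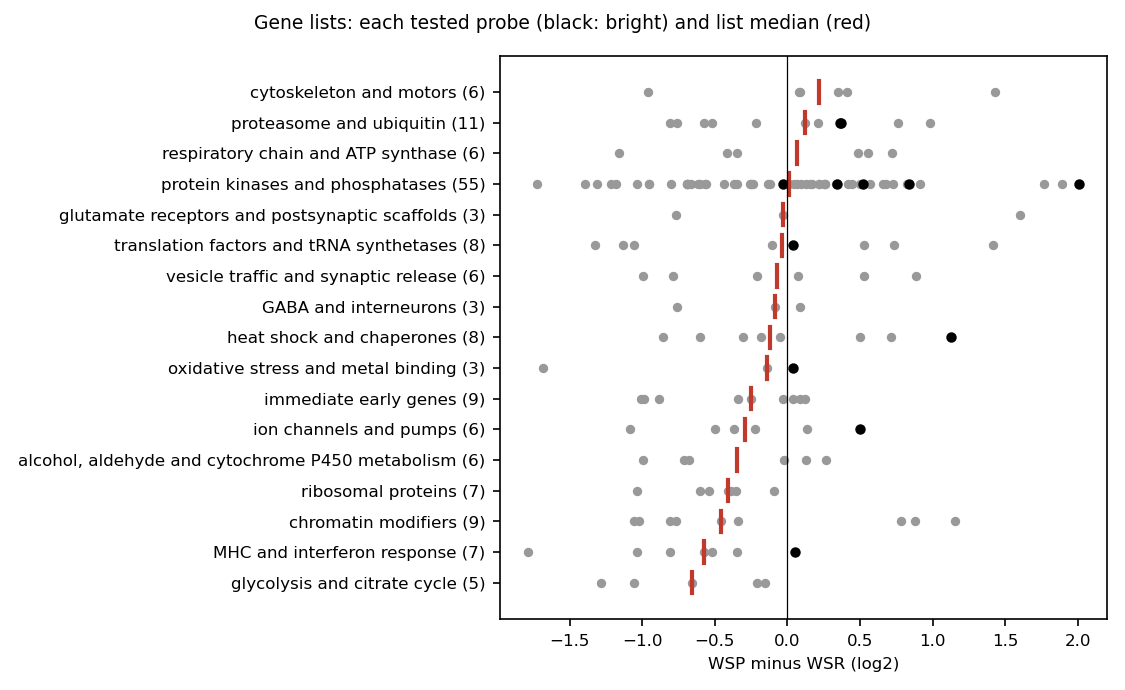
Log2 WSP minus WSR of each tested probe of the gene lists with 3 or more tested members (grey, black where bright) and the list median (red bar); the number of tested probes is in parentheses. Medians run from −0.65 (glycolysis and citrate cycle) to 0.22 (cytoskeleton and motors), and single probes spread over more than 1 log2 unit within most lists.

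Arrays of other mice from the same lines give a second reading of the line difference. In male Air (4 WSP against 4 WSR arrays, background readings of 12.8 to 21.9 in both lines) Dnajb1 measured −0.18 ± 0.22, Hunk −0.09 ± 0.18, Tulp3 0.08 ± 0.20 and Hrc −0.04 ± 0.20. Hunk read between 8.17 and 8.49 on all 8 male Air arrays, close to the 8.67 mean of female WSP and above 3 of the 4 female WSR arrays. Over the 61 bright genes the male median was 0.00. The spread was smaller in males, with a median SE of 0.20 for these genes against 0.35 in females. Ifi203 measured −0.18 ± 0.22 in males.

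The difference between the sexes was tested over the 16 Air arrays. No probe passed the interaction test in limma (0 of 3872, 0%, lowest adjusted p = 0.278, 353 at an unadjusted p under 0.05). The interaction, female minus male line difference, was 1.31 ± 0.45 for Dnajb1 (adjusted p = 0.377) and 2.10 ± 0.79 for Hunk (adjusted p = 0.399). With array weights 172 probes passed. Without female WSP 2-1 there were 19, without female WSP 1-1 there were 5, and without female WSR 1-2 there were 2.

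Female mice after ethanol vapor were compared between the lines on 7 arrays, 4 WSP and 3 WSR. The background reading again differed, at 36.3 to 195 in WSP and 555 to 769 in WSR. There Hunk measured 1.77 ± 0.69, with WSP at 8.06, 8.80, 6.75 and 8.87 and WSR at 7.10, 6.93 and 5.02. Hrc measured 0.63 ± 0.35, Dnajb1 0.41 ± 0.50, Tulp3 0.30 ± 0.47 and Ifi203 −0.36 ± 0.31. In male mice after ethanol, where readings ran from 8.25 to 41.1, Hunk measured 0.15 ± 0.28, Hrc 0.20 ± 0.25, Dnajb1 −0.12 ± 0.24, Tulp3 0.08 ± 0.23 and Ifi203 −0.17 ± 0.24. The high background of the female WSR arrays was thus present in both treatments and in neither male group, and its part in the female values was not tested.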

How the data were processed

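The deposited files give 1 intensity per spot on a linear scale (Signal, per the file headers) and 1 background intensity for the whole array. Scanner software is not given in the sources used here. The authors' deposited value table, which served as an alternative, holds a score that equals 8 plus 2 times the standardised log2 Signal of the array. With few exceptions it is blank where Signal does not exceed the background. On WSP 2-1 the Signal exceeded the background for 98.7% of the given scores. Signal was background-corrected per array with limma 3.58.1 (R 4.3.3; normexp, offset 0.1 of the array median, at most 50), 192 genomic DNA control spots were dropped, and log2 values were quantile normalised over 31 arrays, leaving out 1 array the submitters marked as excluded. Probes with a mean log2 signal over the 8 arrays above the 25th percentile were tested (3872 of 5163) with lmFit and eBayes on the 8 arrays, and adjusted by Benjamini-Hochberg at 0.05. Different probes of a gene were kept apart. Signal over background limits precision, as does the number of arrays; p-values measure the spread between pools of 2 mice. The fits were tested on simulated data with independent arrays and the same SD in both lines for each probe. The simulation did not include the unequal spread or the background difference of the real arrays.

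Named genes were chosen among probes whose title names 1 gene: of the bright probes the 14 with the smallest p in each direction (11 were lower), of the others 4 in each direction, any probe past the adjusted threshold (there was none), up to 3 bright members of each list, and markers asked for by their list. One gene this rule names is not reported here. Symbols were matched to the array's titles by hand and checked in a RefSeq table. The members, lists and rules were chosen with earlier results of these data known. Arrays of the same number in the 2 lines were checked as pairs: their deviations from the line means correlated at 0.00, 0.06, 0.21 and −0.06. The main fit did not pair them. A correlation over all tested probes cannot exclude an effect shared by arrays of the same number.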

Additional observations from a re-analysis of the deposited data

Results flagged for a closer look

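In 9 of 132 groups of 4 arrays looked at, 1 array lay far from the other 3, its gap to the nearest array exceeding Dixon's 95% critical share of the group's range; chance alone gives about 1 in 20 groups. In WSP the array 2-1 was the one apart for Fech (0.847 of the range, at 7.74), Wbp1 (0.845, at 10.38), Hba-a1 (0.832, at 10.41) and Eif2b (0.948, at 9.06), high for Hba-a1 and low for the other 3. For Rbx1 it was WSP 2-2 (0.864, at 8.93). In WSR the array 1-2 was high for Gipc1 (0.838, at 8.47) and for the median level of the glycolysis and citrate cycle list (0.833, at 7.61), and had the smallest share of probes above 2 times background (0.832, at 5.93%). WSR 2-1 was low for the median level of the immediate early genes (0.851, at 4.30).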

How the results depend on the processing

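The count of probes passing between the lines in female Air stayed at 0 under each other normalisation, background and dim-filter alternative tried on the 8 arrays' intensities, and without each array in turn (0 in all 8 fits). The exceptions were the fit of all 31 arrays (129 of all tested probes, 9 of the bright), the authors' deposited value table (11 and 2) and a test restricted to probes above 2 times background on 3 of 4 arrays of each line (1 and 1). The cause was not tested, beyond the smaller number of probes tested in the last (345) and in the value table (1340). The main fit did not pair arrays by number. With the selection replicate as a replicate block 0 probes passed (325 at an unadjusted p under 0.05 in limma), and with selection replicate and pool as a replicate block 0 passed (291), so no call changed. The sex interaction gave 172 probes with array weights, 2 without background correction and 4 with cyclic loess, and 0 to 19 when 1 array was left out. The difference in background reading ran from −4.50 to −2.91 without each array in turn. The exact permutation p was 0.0286 without any 1 WSP array and 0.0571 without any 1 WSR array. Cyclic loess turned Add3 to −0.017, Rhoc to −0.0022, Gipc1 to −0.026 and Enpp2 to −0.0093, and median scaling turned Drg2 to 0.95, Ifi203 to 0.61 and Actl6a to 1.01; the cause was not tested. Of 1011 values of named genes under alternatives, 960 kept direction and side of the threshold, 7 reversed, 38 changed sign from a difference under 1 SE and 6 passed the threshold, all in the fit of 31 arrays. Of 578 list medians 526 moved by less than the spread between arrays. Signal over background limits every probe that is not bright.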
